A study of Mus musculus with 206 samples.

Results

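Zbtb20 encodes a zinc-finger transcriptional repressor with a BTB domain, a protein-interaction module shared by a large family of repressors. In the mouse it is known for giving CA1 neurons of the hippocampus their identity and for the generation of astrocytes. In mouse macrophages it represses the gene of IκBα, the inhibitor that holds NF-κB in the cytoplasm, and so promotes responses to Toll-like receptors such as TLR4, the receptor of lipopolysaccharide (LPS). The mark measured here, H3K27ac, is an acetylation of histone H3 carried by active promoters and enhancers.

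The Zbtb20 gene (ENSMUSG00000022708.16) spans chr16:42875881-43642602 on the plus strand of mm10, which is 766.722 kb, and has 21 annotated transcripts in GENCODE M21, 12 of them protein coding. Members of the locus were the consensus H3K27ac regions inside this gene body, or with Zbtb20 as the nearest protein-coding transcription start site (TSS) within 100 kb. They numbered 84 of the 108274 regions in the 4 consensus lists: 15 of 18272 in prefrontal cortex (PFC), 15 of 16201 in hippocampus, 14 of 13788 in hypothalamus and 40 of 60013 in striatum. Overlapping members of different lists merged into 37 distinct places, of which 6 were in all 4 lists, 2 in 3 lists, 9 in 2 lists and 20 in 1 list. Of the 84 members, 78 lay in the gene body and 6 outside it, and 9 had as nearest TSS that of Tigit, the gene of an inhibitory receptor of lymphocytes, which lies just downstream of Zbtb20. The locus was chosen by the measured peak ranks of 1 of these 9, in the hypothalamus, between MOR-LPS and SAL-LPS, seen in earlier results of these data. All member values of that comparison are therefore a description and carry no test.

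The mice were wild-type C57BL/6NTac of both sexes. Dams carried minipumps that delivered morphine (MOR, 10 mg/kg per day) or saline (SAL) through gestation, pups were fostered to drug-naive dams, and the pups received morphine (10 mg/kg) or saline from postnatal day 1 to 14, after which withdrawal was spontaneous. As adults they were given LPS, which triggers inflammation, or saline, and brains were taken 2 h later. Group names give the perinatal and then the adult treatment: MOR-LPS, SAL-LPS, MOR-SAL and SAL-SAL. Each library held nuclei of 1 animal and 1 brain region, taken from bilateral punches (2 adjacent punches in hypothalamus) and sorted for the neuronal protein NeuN, and was made by MOWChIP-seq, a microfluidic chromatin immunoprecipitation for small samples. Perinatal treatment was given per dam, so that litter and perinatal treatment cannot be told apart, and PFC libraries were made with another kit than the rest, so that kit and PFC cannot be told apart.

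The 172 libraries compared came from 72 animals. There were 14 MOR-LPS, 11 SAL-LPS, 9 MOR-SAL and 8 SAL-SAL libraries in PFC. In the same order there were 10, 12, 11 and 11 in hippocampus, 10, 11, 12 and 8 in hypothalamus, and 15, 13, 7 and 10 in striatum. A library's list held 10811 to 143527 peaks, and list length was the measure of depth, since read counts were not used. A further PFC library (SAL-SAL female 9-2) had 4371 peaks and was left out, and 2 identical hippocampus lists (SAL-LPS males 1-2 and 5-2) were counted as 1. Markers of oligodendrocytes, which a NeuN sort should remove, had 1 of the library's 10000 strongest peaks within 1 kb of the TSS (marked, below) at 0 to 12 of 12 genes per library, with the full 12 in the striatum library MOR-LPS 7-1 and in the striatum and PFC libraries of the SAL-SAL female 9-4. None of 10 microglia markers was marked in any hypothalamus or striatum library.

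The sequences below are those the results turn on, printed from GRCm38.p6 (mm10) on the plus strand. The first lies in the intronic interval nearest the Tigit TSS in the hypothalamus list, at chr16:43592174-43592473. The second lies in region 12 of the striatum list, at chr16:43130719-43131018. Each is placed on the peak summit that had summits of most libraries within 150 bp. These were 9 of the 17 hypothalamus libraries and 5 of the 12 striatum libraries with a peak there. Capitals mark the 21 bases around the chosen summit. Both windows lie in introns.
Tigit-near interval: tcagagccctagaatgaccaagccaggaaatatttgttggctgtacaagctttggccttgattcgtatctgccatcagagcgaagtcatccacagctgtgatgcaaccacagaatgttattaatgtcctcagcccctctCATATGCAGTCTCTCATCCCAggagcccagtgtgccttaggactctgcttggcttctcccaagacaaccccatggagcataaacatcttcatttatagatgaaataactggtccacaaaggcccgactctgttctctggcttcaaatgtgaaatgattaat
striatum region 12: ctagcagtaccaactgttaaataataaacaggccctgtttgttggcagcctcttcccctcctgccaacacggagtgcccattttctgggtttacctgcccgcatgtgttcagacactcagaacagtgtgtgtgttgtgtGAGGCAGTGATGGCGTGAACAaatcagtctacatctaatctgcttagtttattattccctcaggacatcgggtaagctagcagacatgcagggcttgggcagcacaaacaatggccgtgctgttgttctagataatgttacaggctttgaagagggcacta
The interval's window had 46% G and C and 3 CpG, and the striatum window had 48% and 5 CpG. Both strands were searched for TGANTCA (the AP-1 motif), TTGCNNAA (C/EBP), AACAAT (SOX) and the NF-κB motif. The interval's window held none of the 4, and the striatum window held 1 SOX motif, at base 246. Among central windows of the same length in 13787 hypothalamus regions, AP-1 occurred in 8.96%, C/EBP in 11.7%, NF-κB in 0.305% and SOX in 12.7%. Among 60009 striatum windows the shares were 10.8%, 12.8%, 0.277% and 14.8%.

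Zbtb20 starts from 8 annotated groups of TSS, called promoters 1 to 8 here in order along the gene. Promoter 1 is at chr16:42875881 and promoter 2 lies 31.5 kb downstream. Promoters 3 (360 kb), 4 (371 kb) and 5 (487 kb) are in the middle of the gene, and promoters 6 (628 kb), 7 (632 kb) and 8 (634 kb) stand close together near its 3' end. The 250 bases before promoters 4 and 6 are shown because they were the least and the most often acetylated in the lists, with each CpG in capitals. They lie at chr16:43247034-43247283 and chr16:43503364-43503613.
promoter 4: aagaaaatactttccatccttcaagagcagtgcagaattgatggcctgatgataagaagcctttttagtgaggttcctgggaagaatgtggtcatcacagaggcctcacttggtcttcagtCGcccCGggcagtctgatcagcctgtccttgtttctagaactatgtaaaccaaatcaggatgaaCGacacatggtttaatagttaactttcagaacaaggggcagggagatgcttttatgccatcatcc
promoter 6: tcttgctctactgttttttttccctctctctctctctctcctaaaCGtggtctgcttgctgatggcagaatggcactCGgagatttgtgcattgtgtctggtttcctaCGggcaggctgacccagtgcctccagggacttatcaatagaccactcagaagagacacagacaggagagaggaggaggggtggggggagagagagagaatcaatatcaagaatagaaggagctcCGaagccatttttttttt
They held 3 and 4 CpG, with 44.8% and 48.8% G and C. Over 21938 promoters of protein-coding genes the median was 8 CpG in a window of this length, and 24.6% of them had fewer than promoter 4 and 30.9% had fewer than promoter 6. None of the 4 motifs occurred in either window.

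To see where the gene was acetylated, each library was reduced to its 10000 strongest peaks, called top peaks here, so that lists of different length could be set side by side. The 3' cluster of promoters 6 to 8, in a place at chr16:43499878-43528877, held a top peak in 37 of 44 hippocampus, 36 of 42 PFC, 45 of 45 striatum and 34 of 41 hypothalamus libraries. The upstream place at chr16:43461093-43469247, which covers untranslated exon sequence, held one in 27, 25, 37 and 29 libraries. In the long introns between promoters 2 and 5, no 5 kb bin outside the hippocampus held a top peak in more than 28.9% of libraries, the value at 402.5 kb in striatum. The place at chr16:43068908-43075792, listed in the hippocampus list alone, held a top peak in 18 of 44 hippocampus, 0 of 42 PFC, 4 of 45 striatum and 3 of 41 hypothalamus libraries. Any peak at all was found at chr16:43474519-43479321 in 34 of 44 hippocampus, 5 of 42 PFC, 1 of 45 striatum and 6 of 41 hypothalamus libraries, and at chr16:43483809-43492026 in 35, 3, 1 and 8. These 3 places were in the lists because hippocampus libraries had peaks there, so their counts are a description.

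**Figure D1:**
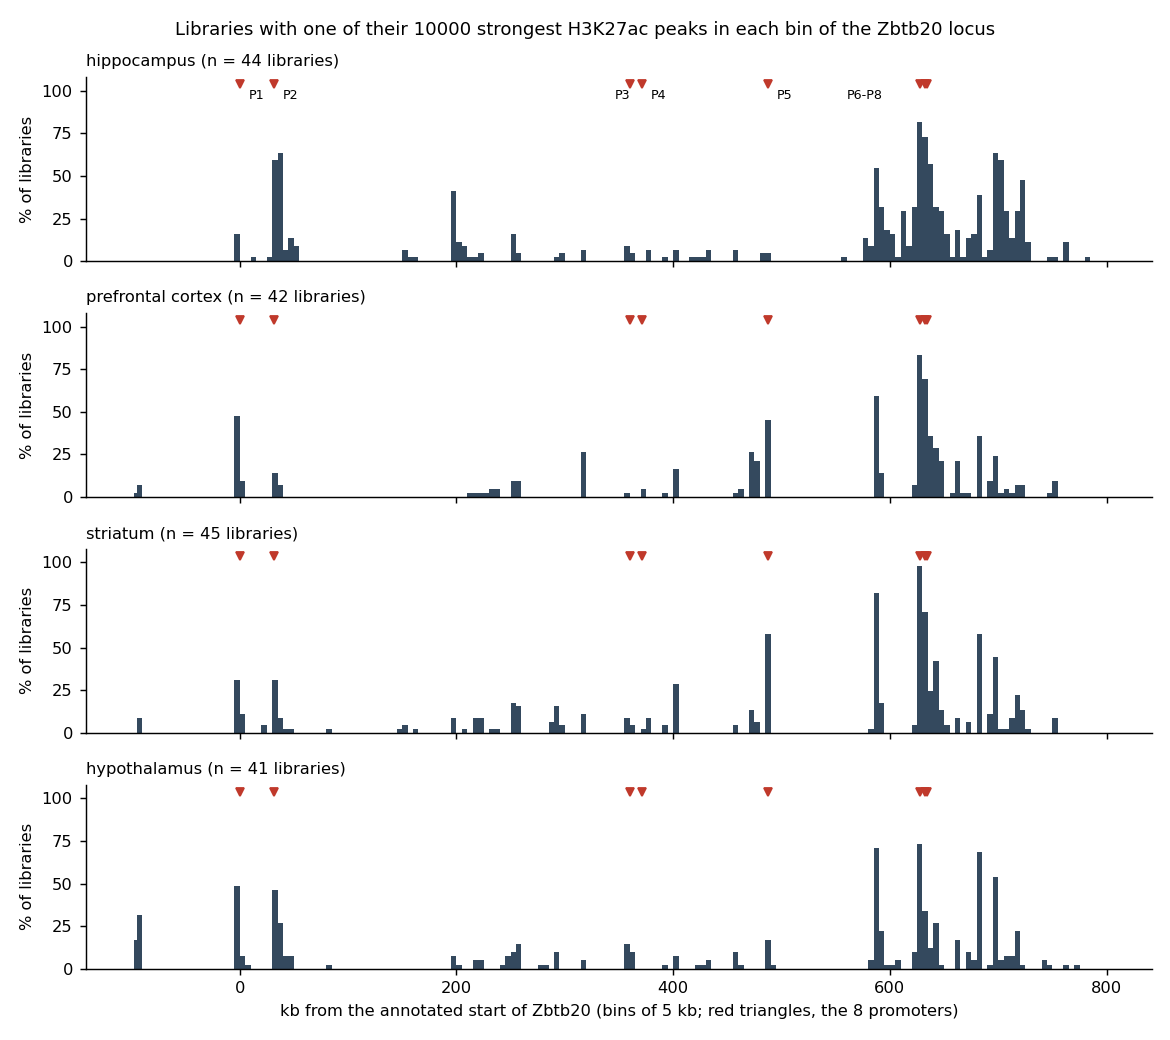
Share of libraries (%, vertical axes) with a top peak in each 5 kb bin of the Zbtb20 locus, by distance from the annotated start (kb, horizontal axis), in 4 brain regions; red triangles mark the 8 promoters. All 4 profiles peak at promoters 6 to 8, and the bin at 197.5 kb stands out in hippocampus, where 40.9% of libraries were marked.

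H3K27ac peaks at some of the promoters differed in frequency between brain regions. A promoter counted as marked where a top peak lay within 1 kb of its TSS. Promoter 6 was marked in 31 of 44 hippocampus, 35 of 42 PFC, 44 of 45 striatum and 29 of 41 hypothalamus libraries. Promoter 1, the 5' end of the gene, was marked in 7, 21, 16 and 21 libraries in that order, and promoter 2 in 21, 6, 14 and 19. Promoter 5 was marked in 2 hippocampus libraries, against 19 in PFC, 26 in striatum and 7 in hypothalamus. Promoter 7 was marked in 22, 24, 17 and 7 libraries and promoter 8 in 24, 17, 13 and 5, in the order hippocampus, PFC, striatum and hypothalamus. Promoter 3 was marked in 3, 1, 4 and 7. Promoter 4 was marked in none, which allows a share of at most 7.87% to 8.57% per brain region (upper bound of the 95% Wilson interval, which covers counting error only). When all peaks were used it was marked in 6, 6, 4 and 0 libraries.

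The 8 promoters were compared over the 6 pairs of brain regions, 48 tests in all, by two-sided Fisher's exact tests with Benjamini-Hochberg adjustment, and 14 passed. Because most animals gave several brain regions, each difference was also tested within animals by an exact McNemar test, under which 5 of the 14 passed. Promoter 5 was marked less often in hippocampus than in striatum (-53.2 percentage points, adjusted p = 1.5e-06, Fisher's exact test, and 0.0234 within animals), and than in PFC (-40.7 points, 0.000218 and 0.0293 within animals, exact tests). Promoter 2 was marked more often in hippocampus than in PFC, by 33.4 points (0.00536 and 0.0234 within animals, exact tests). Promoter 7 was marked less often in hypothalamus: hippocampus exceeded it by 32.9 points (0.0067 and 0.0375 within animals, exact tests) and PFC by 40.1 points (0.00225 and 0.0375 within animals, exact tests). With all peaks, the promoter 5 difference of hippocampus and striatum shrank to -23.2 points (adjusted p = 0.0906, Fisher's exact test) and the promoter 2 difference to 3.46 points (0.901), and neither passed. With each library's 5000 strongest peaks, promoter 7 in hippocampus minus hypothalamus was 24.0 points (0.057) and did not pass. Promoter 5 in hippocampus minus PFC and promoter 7 in PFC minus hypothalamus passed with all peaks, with 5000 peaks, with a window of 500 bp and within animals.

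The other 9 differences passed over libraries but not within animals. Promoter 1 was marked less often in hippocampus than in PFC (-34.1 points, adjusted p = 0.00536 by Fisher's exact test, and 0.512 within animals by the exact McNemar test), and than in hypothalamus (-35.3 points, 0.00536 and 0.0508). Promoter 8 was marked more often in hippocampus than in hypothalamus, by 42.4 points (0.00059 and 0.242), and in PFC than in hypothalamus, by 28.3 points (0.0206 and 0.0980). Promoter 6 was marked more often in striatum than in hypothalamus, by 27.05 points (0.00351 and 0.0833), and less often in hippocampus than in striatum (-27.3 points, 0.00274 and 0.333). Promoter 5 was marked more often in striatum than in hypothalamus, by 40.7 points (0.00163 and 0.0776), and in PFC than in hypothalamus, by 28.2 points (0.0299 and 0.242). Promoter 2 was marked less often in PFC than in hypothalamus (-32.1 points, 0.00736 and 0.0536), but with all peaks the difference was 3.08 points in the other direction. Promoter 1 depended on the window: within 500 bp the difference was -9.63 points for hippocampus minus PFC (0.265, Fisher's exact test) and -2.61 for hippocampus minus hypothalamus (0.800), and with all peaks it was -22.3 (0.0702) and -4.99 (0.770). Promoter 6 in striatum minus hypothalamus was 18.2 points within 500 bp (0.192), 16.8 with 5000 peaks (0.265) and 7.32 with all peaks (0.263), and in hippocampus minus striatum it was -9.09 with all peaks (0.167) and -25.5 with 5000 peaks (0.057). With 5000 peaks, promoter 8 differed by 19.96 points in hippocampus minus hypothalamus (0.0753) and 18.9 in PFC minus hypothalamus (0.121), and promoter 5 by 21.6 in striatum minus hypothalamus (0.055). Only some animals gave both brain regions of a pair, so the tests within animals had fewer observations.

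**Figure D2:**
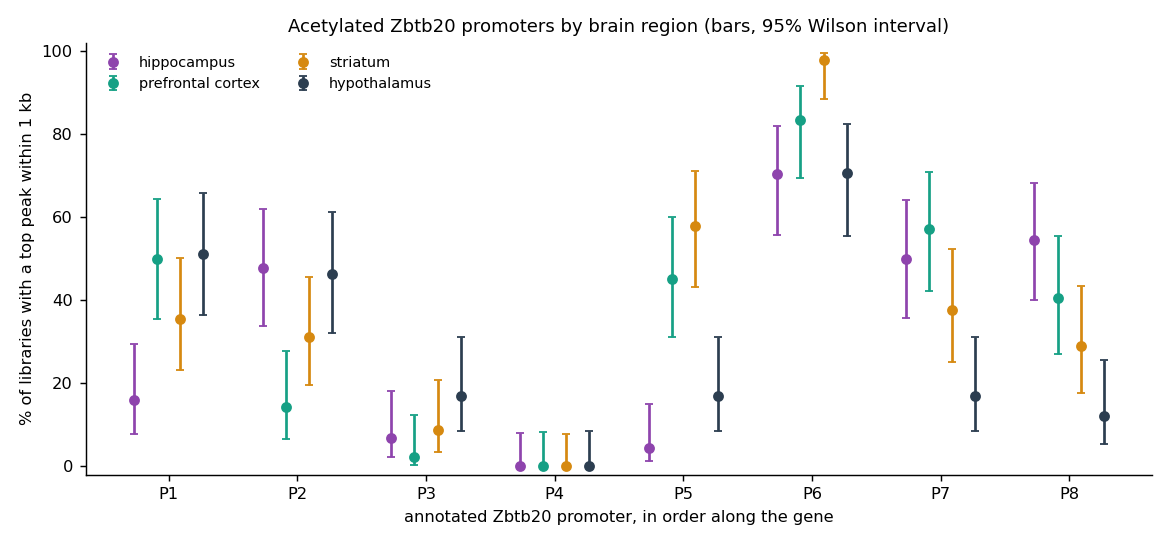
Share of libraries (%, vertical axis) with a top peak within 1 kb of each of the 8 Zbtb20 promoters (horizontal axis, in order along the gene), by brain region; points are shares and bars 95% Wilson intervals. Promoter 6 is the most marked, with 97.8% of striatum libraries, promoter 4 is at 0% throughout, and promoter 5 separates striatum (57.8%) and PFC (45.2%) from hippocampus (4.55%).

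The length of the gene body under top peaks gave 1 value per library. It averaged 15.1 ± 13.6 kb in hippocampus (SD, n = 44), with a lowest value of 0, a median of 10.6 and a highest of 54.8 kb. It was 12.0 ± 12.4 kb in striatum (n = 45; 1.69, 7.75 and 57.2), 10.4 ± 10.1 kb in PFC (n = 42; 0, 8.62 and 50.8) and 7.34 ± 8.91 kb in hypothalamus (n = 41; 0.38, 4.22 and 46.4). The 4 ranges overlapped almost fully. Among 5003 genes of at least 50 kb, Zbtb20 stood 38th in hippocampus, 48th in striatum, 61st in PFC and 37th in hypothalamus by mean marked length. Hippocampus exceeded hypothalamus by 7.73 ± 2.47 kb (SE; two-sided permutation test, adjusted p = 0.0127 over 6 pairs). Within the 21 animals that gave both, the difference was 7.94 ± 3.64 kb, positive in 15 of 21, and did not pass (sign-flip permutation test, adjusted p = 0.148). No other pair passed: striatum minus hypothalamus was 4.69 ± 2.31 kb (adjusted p = 0.141, permutation test), hippocampus minus PFC 4.62 ± 2.57 kb (0.153), PFC minus hypothalamus 3.11 kb (0.215), hippocampus minus striatum 3.03 kb (0.324) and PFC minus striatum -1.59 kb (0.522). The call also rested on the number of top peaks, since with each library's 5000 strongest peaks the hippocampus excess was 3.04 kb (adjusted p = 0.350, permutation test).

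By treatment, marked length in hypothalamus was 16.7 ± 13.1 kb in MOR-LPS (lowest 4.02, median 12.8, highest 46.4 kb; SD, n = 10), against 4.07 ± 2.90 kb in SAL-LPS (0.772, 3.59 and 11.4; n = 11), 4.05 ± 2.39 kb in MOR-SAL (1.08, 3.54 and 9.59; n = 12) and 5.02 ± 6.63 kb in SAL-SAL (0.38, 1.81 and 17.6; n = 8). The ranges of MOR-LPS and SAL-LPS overlapped. The 2 longest MOR-LPS values were 46.4 kb in 16-4, which had 1 of 12 oligodendrocyte markers, and 33.3 kb in 15-1, which had 4. Of the neuron markers described below, 16-4 had 1 marked, the fewest of any hypothalamus library, and 15-1 had 3. In striatum the means were 19.1 ± 16.8 kb in MOR-LPS, 9.28 ± 7.08 kb in SAL-LPS, 5.10 ± 1.52 kb in MOR-SAL and 9.80 ± 10.2 kb in SAL-SAL, where oligodendrocyte markers were marked at 31.1%, 6.41%, 4.76% and 10.8% on average. The longest striatum values were 57.2, 45.1 and 38.8 kb in MOR-LPS 16-2, 7-1 and 15-3, with 11, 12 and 11 of the 12 markers, and 36.6 kb in SAL-SAL 9-4, with 12. The part of these cells in the lengths was not tested. In hippocampus the means were 20.1, 9.80, 15.7 and 15.6 kb, and in PFC 8.93, 10.8, 7.65 and 15.8 kb, in the same order. These group values were not tested, because the hypothalamus difference chose the locus. In sorted bulk nuclei, a mark in more cells and more of the mark per cell cannot be told apart.

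**Figure D3:**
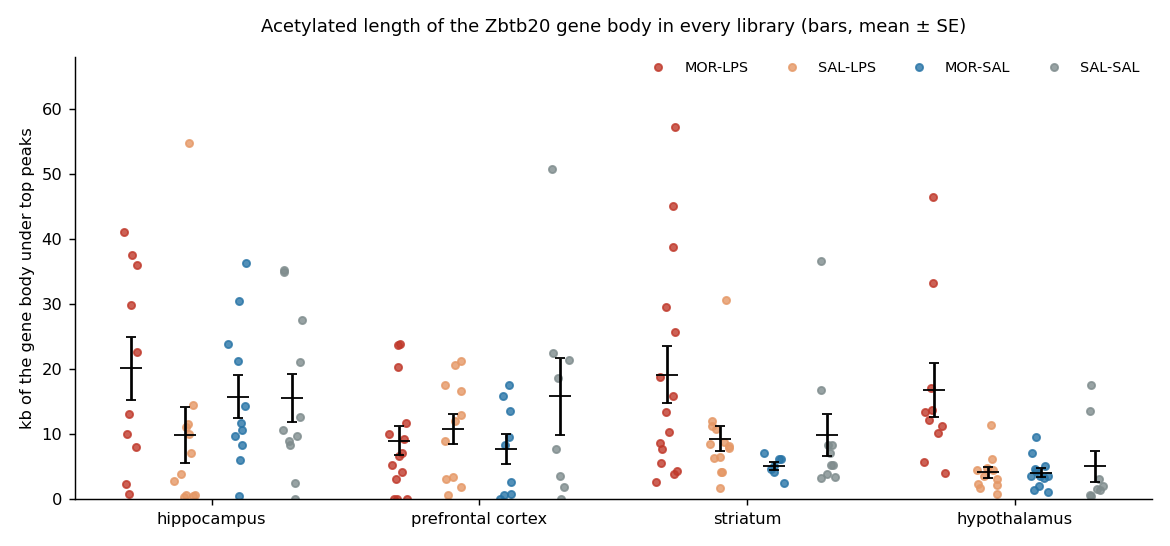
Length of the Zbtb20 gene body under top peaks (kb, vertical axis) in every library, by brain region and treatment (horizontal axis; MOR-LPS, SAL-LPS, MOR-SAL, SAL-SAL from left to right); points are libraries and bars the mean ± SE. Groups overlap in all 4 brain regions, and the hypothalamus MOR-LPS libraries range from 4.02 to 46.4 kb.

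For comparisons between treatments each consensus region was ranked within its library from 0 to 100 by its strongest peak, and ranks were compared with limma with sex as a term, adjusting p-values over all regions of the brain region by the Benjamini-Hochberg method. A difference is in rank points and says only how a region stood among the regions of its own library. The member ranked highest was the one over promoters 6 to 8 in each brain region, at 84.8 ± 18.6 in hippocampus (SD, n = 44), 81.5 ± 19.1 in PFC (n = 42), 96.8 ± 3.47 in striatum (n = 45) and 80.2 ± 20.3 in hypothalamus (n = 41).

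The intronic interval nearest the Tigit TSS is chr16:43589452-43594338 in the hypothalamus list. It is 4887 bp long, 716 kb from the start of Zbtb20 and 69808 bp from the Tigit TSS, and it is region 14 of the 14 hypothalamus members in order along the chromosome. Nearness to Tigit is a distance and does not show which gene the interval serves. In MOR-LPS its rank averaged 67.7 ± 26.8 (lowest 10.1, median 80.1, highest 86.9; SD, n = 10), against 16.0 ± 12.4 in SAL-LPS (5.14, 13.2 and 49.9; n = 11). It was 16.7 ± 7.46 in MOR-SAL (6.53, 17.3 and 32.4; n = 12) and 35.2 ± 32.4 in SAL-SAL (6.71, 19.8 and 88.6; n = 8). Of the MOR-LPS libraries, 8 of 10 lay above all 11 SAL-LPS and all 12 MOR-SAL libraries, while the other 2 lay within their range.

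Peaks at the interval showed how the ranks arose. A peak of any strength was present in 9 of 10 MOR-LPS, 1 of 11 SAL-LPS, 4 of 12 MOR-SAL and 3 of 8 SAL-SAL libraries, and a top peak in 7, 0, 0 and 2. A library without a peak there took the tied rank of all its regions without one, which depended on list length. MOR-SAL 15-4 (24505 peaks) and SAL-SAL 10-3 (20170 peaks) had none and ranked 32.4 and 33.8, above MOR-LPS 13-2 (27.8), which had peaks. Peaks covered 1543 ± 1210 bp of the interval in MOR-LPS, 40.9 ± 136 in SAL-LPS, 118 ± 194 in MOR-SAL and 240 ± 398 in SAL-SAL. The best fold enrichment over local background in MOR-LPS libraries had a median of 6.41 and a highest value of 7.58, and MOR-LPS 18-1 had no peak. The lone SAL-LPS library with a peak, 10-4, had 450 bp at a fold enrichment of 4.07.

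Markers of other cells were read beside the interval. Oligodendrocyte promoters were marked at 8.33% of 12 in MOR-LPS (0 to 4 markers a library), 3.79% in SAL-LPS (0 to 2), 3.47% in MOR-SAL (0 to 2) and 10.4% in SAL-SAL (0 to 6) on average, and Mobp and Sox10 were never marked. MOR-LPS 7-1, 14-4, 14-0 and 13-2, each with a peak at the interval, had 0 of the 12 markers, and their interval peak was stronger than 92.2%, 93.5%, 92.9% and 58.9% of the peaks of their own lists. The SAL-SAL libraries with the highest ranks, 9-4 (83.5) and 4-1 (88.6), had 6 and 4 markers, and the other 6 had 0. Astrocyte promoters were marked at 6.43% of 14 in MOR-LPS, 4.55% in SAL-LPS, 8.33% in MOR-SAL and 3.57% in SAL-SAL, with 7 of the 14, among them Aqp4, Gja1 and Sox9, never marked. Slc1a2 was marked in 17 of 41 libraries and Aldoc in 10 (7 of them MOR-SAL), and the other 5 in 1 or 2 each. Neuron promoters were marked at 34.3% of 14 in MOR-LPS (1 to 8 a library), 45.5% in SAL-LPS (2 to 11), 48.8% in MOR-SAL (3 to 10) and 39.3% in SAL-SAL (3 to 7). Thalamus promoters were marked at 4.29% of 7 in MOR-LPS (0 or 1), 15.6% in SAL-LPS (0 to 3), 22.6% in MOR-SAL (0 to 5) and 26.8% in SAL-SAL (0 to 4). The part of these in the result was not tested beyond 1 fit with the astrocyte share and 1 with the oligodendrocyte share as a term. The oligodendrocyte term was an alternative chosen after seeing the data. With it the MOR-LPS minus SAL-LPS difference was 46.0 ± 9.10 (SE) points, against 51.2 ± 9.48 without it.

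That difference was larger than 99.99% of those of all hypothalamus regions. It was 51.9 ± 14.0 points in females and 50.5 ± 11.8 in males, and stood between 48.3 and 58.0 with each of the 21 MOR-LPS and SAL-LPS libraries left out in turn. With lists cut to equal length it was 41.6. All of these values re-use the libraries that chose the locus, so they are a description and no separate support. MOR-LPS minus MOR-SAL, which shares the MOR-LPS libraries, was 48.5 ± 9.48. SAL-LPS minus SAL-SAL was -17.2 ± 10.2, with the SAL-LPS libraries shared. MOR-SAL minus SAL-SAL, the comparison in which no library had been used to choose the locus, was -14.5 ± 10.3 (limma p = 0.160, adjusted p = 0.755). Only 4 of 12 MOR-SAL and 3 of 8 SAL-SAL libraries had a peak there, so most ranks in this comparison were tied ones. The difference of differences, the effect of LPS after morphine minus that after saline, was 65.7 ± 14.1. It contains the comparison that chose the locus and is a description too.

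**Figure D4:**
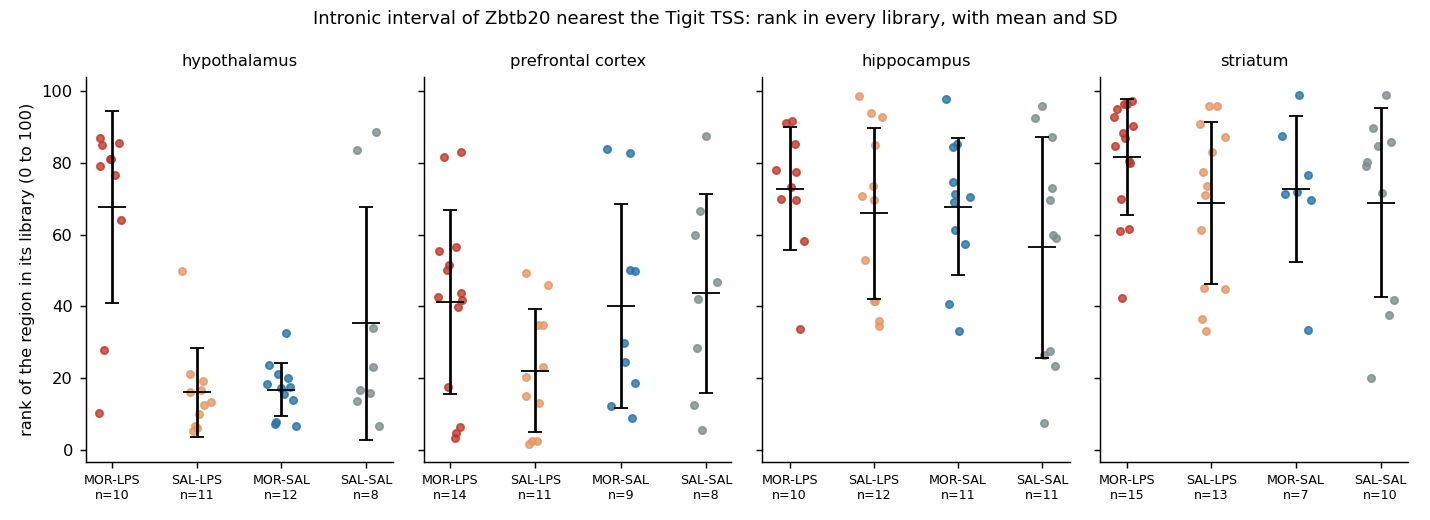
Rank of the Tigit-near intronic interval of Zbtb20 in every library (0 to 100, vertical axes) by treatment (horizontal axis) in 4 brain regions, each with the interval of its own consensus list; points are libraries, and bars the mean and SD. In hypothalamus 8 of 10 MOR-LPS libraries lie above all 11 SAL-LPS libraries; in the other brain regions the groups overlap widely.

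The interval had a counterpart in each other list, and these were tested, in part in the same animals. In PFC (chr16:43589595-43597756) it ranked 41.2 ± 25.7 in MOR-LPS (lowest 3.18, median 43.1, highest 83.0; SD, n = 14), 22.0 ± 17.2 in SAL-LPS (1.51, 20.3 and 49.2; n = 11), 40.1 ± 28.5 in MOR-SAL (n = 9) and 43.6 ± 27.8 in SAL-SAL (n = 8). MOR-LPS minus SAL-LPS was 22.0 ± 9.54, the smallest p of the 15 PFC members, and did not pass (limma p = 0.0233, adjusted p = 0.341). MOR-LPS minus MOR-SAL was 0.26 ± 9.86 there and did not pass either, and SAL-LPS minus SAL-SAL was -22.6 ± 10.7 (limma adjusted p = 0.730). In hippocampus (chr16:43582670-43603127) the interval ranked 72.8 ± 17.2 in MOR-LPS, 65.9 ± 23.9 in SAL-LPS, 67.7 ± 19.1 in MOR-SAL and 56.5 ± 30.8 in SAL-SAL, and MOR-LPS minus SAL-LPS was 8.70 ± 9.88 (limma adjusted p = 0.874). In striatum (chr16:43590093-43600664) it ranked 81.6 ± 16.2, 68.9 ± 22.6, 72.7 ± 20.3 and 68.9 ± 26.3 in that order, and the difference was 15.2 ± 7.87 (limma adjusted p = 0.254), or 5.64 with the oligodendrocyte share as a term, added after seeing the data. Averaged over all libraries, the interval ranked 73.7 in striatum, 65.6 in hippocampus, 36.4 in PFC and 32.6 in hypothalamus, and the spread within each brain region was of the size of these gaps. The ranks are not on 1 scale. They come from lists of 60013, 16201, 18272 and 13788 regions and from intervals of 10572, 20458, 8162 and 4887 bp, in that order. Over the stretch of the hypothalamus interval, a top peak lay in 9 of 45 striatum, 12 of 44 hippocampus, 3 of 42 PFC and 9 of 41 hypothalamus libraries.

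The other 13 hypothalamus members are given from the 5' side. Region 1, chr16:42779954-42782552, lies 94.6 kb before the gene inside 4932412D23Rik, with mean ranks of 37.3 in MOR-LPS and 53.1 in SAL-LPS, a difference of -15.9. Region 2, at promoter 1, averaged 58.4 and 52.9. Region 3, over promoter 2 (chr16:42906350-42912718), averaged 88.2 ± 11.3 in MOR-LPS (lowest 62.2, median 90.5, highest 99.9), 66.5 ± 29.8 in SAL-LPS (13.2, 70.1 and 99.99), 46.5 ± 32.9 in MOR-SAL and 46.4 ± 31.5 in SAL-SAL. In region 3 no MOR-LPS library ranked below 62.2, whereas each other group spanned low to high ranks, which is a description like the rest of this comparison. At promoter 2 itself a top peak lay within 1 kb in 8 of 10 MOR-LPS, 6 of 11 SAL-LPS, 3 of 12 MOR-SAL and 2 of 8 SAL-SAL libraries. Region 4, the adjoining stretch over a non-coding exon at chr16:42912862-42917192, averaged 60.5, 29.0, 17.7 and 37.2 in MOR-LPS, SAL-LPS, MOR-SAL and SAL-SAL. There MOR-LPS minus SAL-LPS was 30.8 ± 9.90, and 4 of 10 MOR-LPS libraries lay above all 11 SAL-LPS libraries.

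Region 7, over promoters 6 to 8, was high in every group, at 87.6 ± 10.3 in MOR-LPS, 78.4 ± 16.3 in SAL-LPS, 81.6 ± 21.3 in MOR-SAL and 71.3 ± 30.7 in SAL-SAL, and MOR-LPS minus SAL-LPS was 8.67. Region 8, just downstream of it (chr16:43514757-43517566), averaged 52.5 ± 33.4 in MOR-LPS (lowest 5.52, median 60.1, highest 95.3), against 17.2 ± 14.1 in SAL-LPS (5.14, 13.2 and 51.9), 23.4 in MOR-SAL and 23.9 in SAL-SAL. Of the MOR-LPS libraries, 7 of 10 lay above all 11 SAL-LPS libraries, and the difference was 34.9 ± 9.06. Region 11 (chr16:43547343-43550488) averaged 43.1 in MOR-LPS, 14.0 in SAL-LPS, 17.8 in MOR-SAL and 32.2 in SAL-SAL, with a difference of 29.2 ± 8.60. Region 13, which covers a coding exon (chr16:43569990-43577705), averaged 83.0 ± 15.7 in MOR-LPS (lowest 56.9), against 51.4 ± 29.2 in SAL-LPS (lowest 9.95), a difference of 30.7 ± 10.4. Region 6 differed by 16.8 ± 9.29, regions 9 and 10 by 7.87 and 8.41, region 5 by -3.56 and region 12 by -16.1.

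In all, 11 of 14 members had a positive MOR-LPS minus SAL-LPS difference, and their median was 12.7 points, against -0.34 over all hypothalamus regions. Those past the threshold were 4, regions 4, 8, 11 and 14, where 4.31% of all hypothalamus regions were past it in either direction and 2.63% were higher. With lists cut to equal length they were 2, regions 8 and 14, against 1.27% in all. Since this comparison chose the locus, nothing is read from these counts. The member just inside the threshold was region 4 (30.8) and the one just outside was region 13 (30.7). In MOR-LPS against MOR-SAL, which shares the MOR-LPS libraries, 3 members were past it, against 3.84% of all regions: region 3 (41.3 ± 10.8), region 4 (39.3 ± 9.89) and region 14 (48.5). The difference of differences, which contains the comparison that chose the locus, had 2, against 1.86% of all regions: region 11 (44.0 ± 12.8) and region 14. With lists cut to equal length it was 0 members, and 7 of all 13788 regions rather than 257. The counts of these 2 comparisons re-use libraries that chose the locus, so nothing is read from them either.

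MOR-SAL against SAL-SAL gave the test in hypothalamus that was free of the choice, and 0 of 14 members passed it, as did 0% of all regions. None of the 14 had an unadjusted limma p under 0.05 either, and the smallest p belonged to region 7 over promoters 6 to 8, at 14.2 ± 8.29 points (p = 0.0876, adjusted p = 0.685). SAL-LPS against SAL-SAL, which shares the SAL-LPS libraries, had 0 of the 13 members other than the interval past the threshold, against 0.305% of all regions, and 1 with an unadjusted p under 0.05, region 11 at -18.5 ± 9.24 (limma adjusted p = 0.395).

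**Figure D5:**
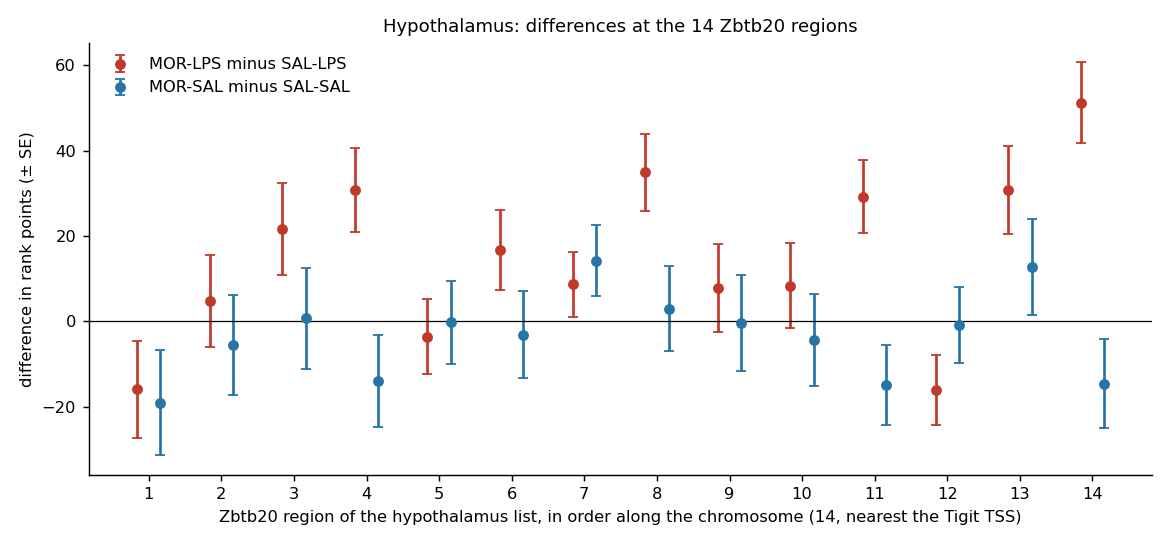
Differences in rank points (± SE, vertical axis) for the 14 hypothalamus regions of Zbtb20 in order along the chromosome (horizontal axis), for MOR-LPS minus SAL-LPS and MOR-SAL minus SAL-SAL. MOR-LPS minus SAL-LPS is highest at region 14 (51.2), the Tigit-near interval, and is positive at 11 of 14 regions; MOR-SAL minus SAL-SAL is -14.5 at region 14.

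In striatum, 1 of 40 members passed in MOR-LPS against SAL-LPS, where 2.32% of all 60013 regions passed and 1.96% were higher. It was region 12, chr16:43128678-43134276, an intronic region 256 kb from the start, whose central sequence is printed above. Its rank averaged 64.1 ± 33.6 in MOR-LPS (lowest 13.8, median 65.0, highest 99.0; SD, n = 15), against 33.9 ± 13.9 in SAL-LPS (18.0, 30.6 and 73.3; n = 13), 30.5 ± 4.45 in MOR-SAL (25.3, 29.4 and 36.4; n = 7) and 35.2 ± 23.4 in SAL-SAL (19.9, 26.2 and 98.5; n = 10). MOR-LPS minus SAL-LPS was 36.4 ± 8.31 (limma adjusted p = 0.0277), with 11 of 15 MOR-LPS libraries above the SAL-LPS mean. A peak of any strength lay there in 12 of 45 striatum libraries. MOR-LPS 6-4 (42.2) and 8-1 (38.6) had none, and exceeded that mean by the tied rank of their short lists (14178 and 24991 peaks). MOR-LPS minus MOR-SAL was 35.7 ± 9.77 and did not pass (limma adjusted p = 0.0649).

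Oligodendrocyte markers were read beside the ranks of region 12. MOR-LPS 15-1, 14-4, 7-1, 15-3, 16-4, 16-2 and 16-0 ranked from 92.9 to 99.0 and had 1, 7, 12, 11, 2, 11 and 9 of the 12 markers, while the other 8 MOR-LPS libraries ranked at most 65.0 and had 0 or 1. Sex followed the same split: the high libraries were female except 14-4, and the low ones male except 12-2. Several of the high libraries also shared the first part of the animal number (15 or 16). The SAL-SAL library at 98.5, 9-4, had 12, and the highest SAL-LPS library, 10-4, had 4. The mean marked share was 31.1% in MOR-LPS (0 to 12 markers), 6.41% in SAL-LPS (0 to 4), 4.76% in MOR-SAL (0 or 1) and 10.8% in SAL-SAL (0 to 12). With this share as a term, a fit chosen after seeing the data, the difference was 17.5 ± 7.77 (limma adjusted p = 0.810), and 0 of all 60013 regions passed. With lists cut to equal length it was 29.9 (limma adjusted p = 0.0514), and 2 of 60013 regions passed, or 0.00333%. The part of these cells in the difference was not tested beyond the fit with their share, and that of sex not beyond its term in every fit.

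Together with region 12, 8 of 40 members had an unadjusted p under 0.05, against 20.4% of all striatum regions. Of the other 7, regions 5, 9, 10, 11, 13 and 16 had positive MOR-LPS minus SAL-LPS differences and region 40 a negative one, at -26.6 ± 9.13 (limma adjusted p = 0.0804). In MOR-SAL against SAL-SAL none of 40 passed, against 0.00667% of all regions, with 1 at an unadjusted p under 0.05, region 2 at 25.3 ± 10.5 (limma adjusted p = 0.779). In SAL-LPS against SAL-SAL none passed, against 0% of all regions, with 1 unadjusted, region 17 at 21.5 ± 8.70 (limma adjusted p = 0.964). In MOR-LPS against MOR-SAL none passed, against 0.253% of all regions, with 6 of 40 unadjusted, against 17.3% of all regions.

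In PFC none of 15 members passed in any of the 4 comparisons, against 0% of all regions in each, and 1, 1, 1 and 0 had an unadjusted limma p under 0.05 in MOR-LPS against SAL-LPS, MOR-SAL against SAL-SAL, SAL-LPS against SAL-SAL and MOR-LPS against MOR-SAL, where 11.3%, 2.96%, 6.54% and 7.81% of all regions did. Region 13 was the member with the smallest p in MOR-SAL minus SAL-SAL, at -22.2 ± 10.8, and region 9 in MOR-LPS minus MOR-SAL, at -15.8 (limma adjusted p = 0.649). In hippocampus none of 15 passed either, against 0.00617% of all regions in MOR-SAL against SAL-SAL and 0% in the other 3, and 2, 1, 0 and 1 had an unadjusted limma p under 0.05 in the same order, where 7.56%, 5.64%, 9.59% and 6.09% of all regions did. The members with the smallest p there were region 7 in MOR-LPS minus SAL-LPS (22.0 ± 10.2, limma adjusted p = 0.634), region 12 in MOR-SAL minus SAL-SAL (21.1 ± 8.19, 0.842), region 6 in SAL-LPS minus SAL-SAL (17.1 ± 9.18, 0.556) and region 5 in MOR-LPS minus MOR-SAL (25.1 ± 10.0, 0.716). In the difference of differences none of the members passed in PFC, hippocampus or striatum, against 0%, 0.00617% and 0.0167% of all regions, and 1, 0 and 3 members had an unadjusted limma p under 0.05, where 7.07%, 5.66% and 14.5% of all regions did, the 3 being striatum regions 12 (40.5 ± 13.4), 13 (38.2 ± 14.6) and 16 (26.5 ± 12.8) and the 1 PFC region 13 (27.7 ± 13.7). At the spread of these ranks, with SEs near 10 points, differences well above the SE did not pass either, such as 25.1 points at hippocampus region 5. A member that did not pass is therefore not shown to be unchanged.

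Genes related to Zbtb20 by family, pathway or position were read in the same fits, in which 4.31% of all hypothalamus regions passed in MOR-LPS against SAL-LPS (2.63% as higher) and 3.84% in MOR-LPS against MOR-SAL. Of 44 genes of the BTB zinc-finger family, 17 had 30 regions in the hypothalamus list, and in MOR-LPS against SAL-LPS 0 of these passed as higher and 1 as lower, the region nearest Zbtb7c, and their median was -0.997 points, against -0.34 over all regions. Of 24 genes of Toll-like receptor and NF-κB signalling, 8 had 12 regions, of which 1 passed as higher, the region nearest Traf6, an adaptor of these receptors (29.6 ± 9.12, limma adjusted p = 0.0391), and the median was 7.58. Nfkbia encodes IκBα, the mouse macrophage target of Zbtb20. Its promoter differed by 5.32 ± 11.1 between MOR-LPS and SAL-LPS (limma adjusted p = 0.822). From read counts, which were not used here, the paper reports modestly higher acetylation of this promoter in the same comparison. A region 24 kb from Nfkbia was higher in MOR-LPS than in MOR-SAL, by 35.9 ± 10.4 (limma adjusted p = 0.0277). Of 14 genes with a TSS within 1 Mb of Zbtb20, 4 had 12 regions with a median of -11.9, and 1 region passed as higher, nearest Ccdc191 (35.2 ± 10.8, limma adjusted p = 0.0384). In MOR-LPS against MOR-SAL the region nearest Atp6v1a, a proton-pump subunit, was higher (28.2 ± 8.73, limma adjusted p = 0.0428) and 1 nearest Gap43, a growth-cone protein, lower (-37.3 ± 10.8, 0.0287). In striatum MOR-LPS against SAL-LPS, 2 of 91 family regions passed, nearest Zbtb9 (29.4 ± 8.45, limma adjusted p = 0.0414) and Zbtb7b (23.2 ± 6.65, 0.0409), as did 2 of 44 pathway regions, nearest Nfkb1, an NF-κB subunit (32.5 ± 8.99, 0.0363), and Traf6 (31.6 ± 9.51, 0.0486), and 0 of 41 neighbour regions, where 2.32% of all regions passed. None of these striatum regions passed with the oligodendrocyte share as a term, in which 0 of 60013 did, and 2 of 60013 passed with lists of equal length. No region of the 3 lists passed in PFC or hippocampus.

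Over the 172 libraries, the genes whose marked gene-body length followed that of Zbtb20 most closely, of 3957 compared, were Pard3 (Spearman rho 0.758), a cell-polarity gene, B3galt5 (0.704), Igsf11 (0.693), Ptpn11 (0.688), a tyrosine phosphatase, and Mbp (0.666), which encodes myelin basic protein. Over the 41 hypothalamus libraries, with group and sex removed, the regions whose rank followed the Tigit-near interval most closely were nearest Adhfe1 (Pearson r 0.885), Hif3a (0.851), Sftpc (0.847), Slc44a1 (0.845) and Zeb2 (0.838). Among the Zbtb20 members, region 4 stood closest (0.685), then regions 10 (0.601), 8 (0.511) and 13 (0.486). These values describe libraries that share depth and cell composition and carry no test.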

How the data were processed

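H3K27ac MOWChIP-seq peak lists of NeuN-sorted nuclei from 4 mouse brain regions were used. Per the labels and methods, the authors used Trim Galore 0.6.7 for trimming, Bowtie2 2.4.5 for alignment to mm10, and MACS2 2.2.7.1 to call peaks in each library. For each peak the authors deposited a fold enrichment (a ratio over local background), a −log10 p, a −log10 q and a score derived from the q-value; their consensus lists from DiffBind 3.10.1 hold positions only. No read counts were used, so the authors' DESeq2 fit was not repeated.

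Each consensus region took the best −log10 p among peaks touching it (1 bp or more, otherwise 0) and was ranked in its library; lists needed 10000 peaks. Ranks were tested with limma 3.58.1 (R 4.3.3) by group and sex per brain region, two-sided, called at adjusted p under 0.05. Permutation tests drew 100000 resamples (scipy 1.17.1). The fits were tested on simulated data. The PFC library labelled MOR-LPS female 12-2 holds peaks named for 12-0, and the label was used. Libraries with 1 animal number come from the same animal, and this pairs brain regions; animals that share the first part of that number were treated as a block in 1 alternative, and what the first part stands for is not given in the sources used here. Alternatives were lists cut to equal length (11306, 13021, 20170 and 10811 peaks in PFC, hippocampus, hypothalamus and striatum), fold enrichment ranks, 50% overlap, a −log10 q of at least 3, terms for depth, astrocyte markers and the first part of the animal number, each sex, and each library left out. A naming-style term and an oligodendrocyte term were chosen after seeing the data. Named in full were the Tigit-near interval, promoter regions, called members and the member of smallest p in each tested comparison. Members and gene lists were chosen with earlier results of these data known.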

Additional observations from a re-analysis of the deposited data

Results flagged for a closer look

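Marked gene-body length of Zbtb20 and the rank of the Tigit-near interval were each examined for single libraries far from the rest in the 7 groups of 10 libraries or fewer, 14 sets of values of which chance alone would point to about 1 in 20, and 2, both of marked length, stood out by Dixon's test. In PFC the SAL-SAL female 9-4 had 50.8 kb under top peaks, and the next of the 8 SAL-SAL libraries had 22.5 kb. In striatum the SAL-SAL female 9-4, the same animal, had 36.6 kb, and the next of the 10 had 16.8 kb. Both libraries had all 12 oligodendrocyte markers marked, and the others of their groups had 0 or 1; the part of these cells in the lengths was not tested.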

How the results depend on the processing

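Of the alternatives to the main comparisons, 296 kept their direction and side of the threshold. The Tigit-near difference in hypothalamus, MOR-LPS minus SAL-LPS, stayed between 41.6 and 56.4 points, was 51.4 with the first part of the animal number as a block, and ran from 48.3 (without MOR-LPS 14-0) to 58.0 (without MOR-LPS 18-1) with 1 library left out. These alternatives re-use the libraries that chose the locus and are a description. Members past the threshold in that comparison were 2 rather than 4 with lists of equal length. In MOR-LPS against MOR-SAL they were 5 rather than 3 in hypothalamus with a term for peak number, and 1 rather than 0 in striatum with a term for astrocyte markers. The striatum call in MOR-LPS against SAL-LPS was 0 with lists of equal length and 0 with the oligodendrocyte term. For marked gene-body length, hippocampus exceeded hypothalamus by 7.73 kb, but by 3.04 kb with 5000 top peaks, by 7.94 kb with the animal as a block, and by 10.6 kb in SAL-SAL libraries alone, none of which passed; it passed with all peaks (33.96 kb) and by number of top peaks (5.09). With all peaks, 4 pairs not called before passed, at 18.7, 19.8, 15.2 and 14.2 kb, and by number of top peaks 2 did, at 6.32 and 4.35 peaks. With the animal as a block, which pairs brain regions, 5 promoter differences passed rather than 14. Among single promoters 31 alternatives changed nothing, 24 lost the call, and 1 reversed: promoter 2 in PFC minus hypothalamus, 3.08 points with all peaks. The cause was not tested. The naming-style term could not be run in striatum, where names had 1 style. Depth was known as list length alone, so a region without a peak may lie under a library's detection limit.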
